A study of Mus musculus with 8 samples.

Results

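The keratin gene family was followed across arthritic and control mouse paws. Members were the keratin genes that the array's annotation gives as the single symbol of a probe set, without the stress keratins Krt6a, Krt6b, Krt16 and Krt17. This left 48 of the 52 keratins measured, among 28944 probe sets, each with 1 probe set: 26 of type I and 22 of type II. By where they are best known, 13 were grouped as epidermal keratins, 9 as keratins of the inner root sheath of the hair, 13 as keratins of the hair shaft, 6 as keratins of simple epithelia, 4 as keratins of other stratified epithelia (mucosa and cornea) and 3 as others.

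Keratins are the intermediate filament proteins of epithelial cells. A filament is built from pairs of 1 type I (acidic) and 1 type II (basic) keratin, and epithelia, epidermal layers and the parts of a hair follicle each use their own pairs. In a paw most of these proteins belong to the skin and its appendages, not to the joint. In bulk tissue, fewer cells of a type and less RNA per cell cannot be told apart.

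The RNA came from paws of male DBA1J mice aged 8 to 10 weeks, a strain prone to autoimmune arthritis, in 4 groups of 8 mice with 2 arrays per group. The CIA group (collagen-induced arthritis) was immunised with type II collagen of the chicken (150 µg, in complete Freund adjuvant) and boosted at week 3 in incomplete adjuvant. The adjuvant group received adjuvant without collagen and the incomplete adjuvant boost, so all groups carried adjuvant. The CIA+MLIF and adjuvant+MLIF groups were treated in the same ways and also received weekly MLIF by the nose, begun ahead of the immunisation. MLIF is the monocyte locomotion inhibitory factor, a pentapeptide of the amoeba Entamoeba histolytica. Paws were taken 4 weeks after the booster per the sample labels, whereas the series text puts collection ahead of it. Whether skin was taken off the paws, and how many mice gave the RNA of an array, is not given in the sources used here, so p-values speak only of the spread from array to array.

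Values are log2 signals as deposited, and changes are differences of group means with standard errors (SE) from a limma fit over all probe sets. A change passed at an adjusted p under 0.05, with Benjamini-Hochberg adjustment over all 28944 probe sets. Replicate arrays correlated at 0.988 to 0.999, and the median SE of a change was 0.18. The standard deviation of the difference between replicates was 0.32 in CIA, 0.26 in CIA+MLIF, 0.21 in adjuvant and 0.09 in adjuvant+MLIF. The fit pools these spreads, so the SE and adjusted p of a comparison also depend on arrays outside it. The median signal of the CIA replicate 1 array was 6.66 and that of the other arrays 7.07 to 7.10. The median of all probe sets accordingly differed by -0.25 between CIA and adjuvant and by 0.24 between CIA+MLIF and CIA. Entries taken as array controls had median signals, averaged per group, of 6.34 in adjuvant, 6.30 in adjuvant+MLIF, 6.16 in CIA and 6.37 in CIA+MLIF. At or under that level were 27, 24, 12 and 16 of the 48 keratins in the same order, so for those genes the low end is near the control level and the size of a rise is not well determined. The 8 joint markers (cartilage and synovium genes) were all above the control level on average in every group, with a mean 3.33 to 3.57 over the array median.

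CIA against adjuvant asks what collagen arthritis changed in the paw. Of the 48 keratins, 29 were higher in CIA and 0 were lower, where 4.30% of all probe sets were higher and 14.2% lower. The median change of the family was 0.78, against -0.25 for all probe sets. Of the type I keratins 16 of 26 were higher, and of the type II keratins 13 of 22. The rises were held by epidermal keratins (12 of 13, median change 4.96), hair shaft keratins (11 of 13, median 1.19) and inner root sheath keratins (5 of 9, median 0.54), plus Krt90. None of the 6 simple-epithelial and none of the 4 mucosal and corneal keratins passed in limma's test, and 0 and 0 of them had an unadjusted p under 0.05. In alternative fits other than those leaving out an array, 0 to 2 simple-epithelial and 3 to 8 inner root sheath keratins were higher. Up to 14.4% of all probe sets were higher in those fits.

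CIA+MLIF against CIA asks what MLIF changed in arthritic paws, and it split the family. A total of 10 keratins were higher and 12 lower with MLIF, where 11.5% of all probe sets were higher and 3.25% lower, and the family's median change was 0.01. Of the 29 keratins higher in CIA, 9 were higher again in CIA+MLIF, 12 were lower there and 8 passed in neither direction. Both comparisons use the CIA arrays, so a CIA array that reads high or low enters them with opposite signs. The same split was not counted for all probe sets higher in CIA, so it has no baseline here. Hair shaft keratins were mostly higher with MLIF (8 higher, 2 lower) and inner root sheath keratins lower (0 higher, 5 lower). Of the 13 epidermal keratins 1 was higher, 5 were lower and 7 did not pass.

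CIA+MLIF against adjuvant+MLIF gives the effect of collagen in mice that received the peptide. Its group means share no array with CIA against adjuvant, but both tests use 1 estimate of spread per probe set from all 8 arrays. Here 20 keratins were higher and 0 lower, where 0.712% of all probe sets were higher and 0.0173% lower. Of these 20, 19 were also among the 29 higher in CIA without MLIF, and the other was Krt39. This overlap was not counted for all probe sets. Hair shaft keratins gave 10 of the rises, epidermal keratins 9 and Krt90 the last. None of the 9 inner root sheath keratins passed in limma's test of this comparison, and 0 had an unadjusted p under 0.05. The interaction, which tests whether the collagen effect differed with and without MLIF, was positive for 6 keratins and negative for 8, where 5.62% of all probe sets were positive and 1.62% negative.

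Adjuvant+MLIF against adjuvant shows the peptide without collagen. In limma's test 0 keratins passed here, and 0% of all probe sets did. Changes of the 48 ran from -0.44 (Krt5) to 0.51 (Krt1), and 3 keratins had an unadjusted p under 0.05, as did 1107 of all probe sets. With limma's array weights, 2 keratins were called higher and 1 lower in this comparison, where 1.49% of all probe sets were higher and 3.49% lower.

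The split of higher and lower calls was also taken on arrays brought to 1 distribution. After quantile normalization, 14.4% of all probe sets were higher and 13.7% lower in CIA than in adjuvant, and 35 keratins were higher and 0 lower. For CIA+MLIF against CIA the shares became 11.5% higher and 13.0% lower, with 10 keratins higher and 15 lower. The interaction then called 8.61% and 8.79% of all probe sets, with 8 keratins positive and 15 negative.

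**Figure D1:**
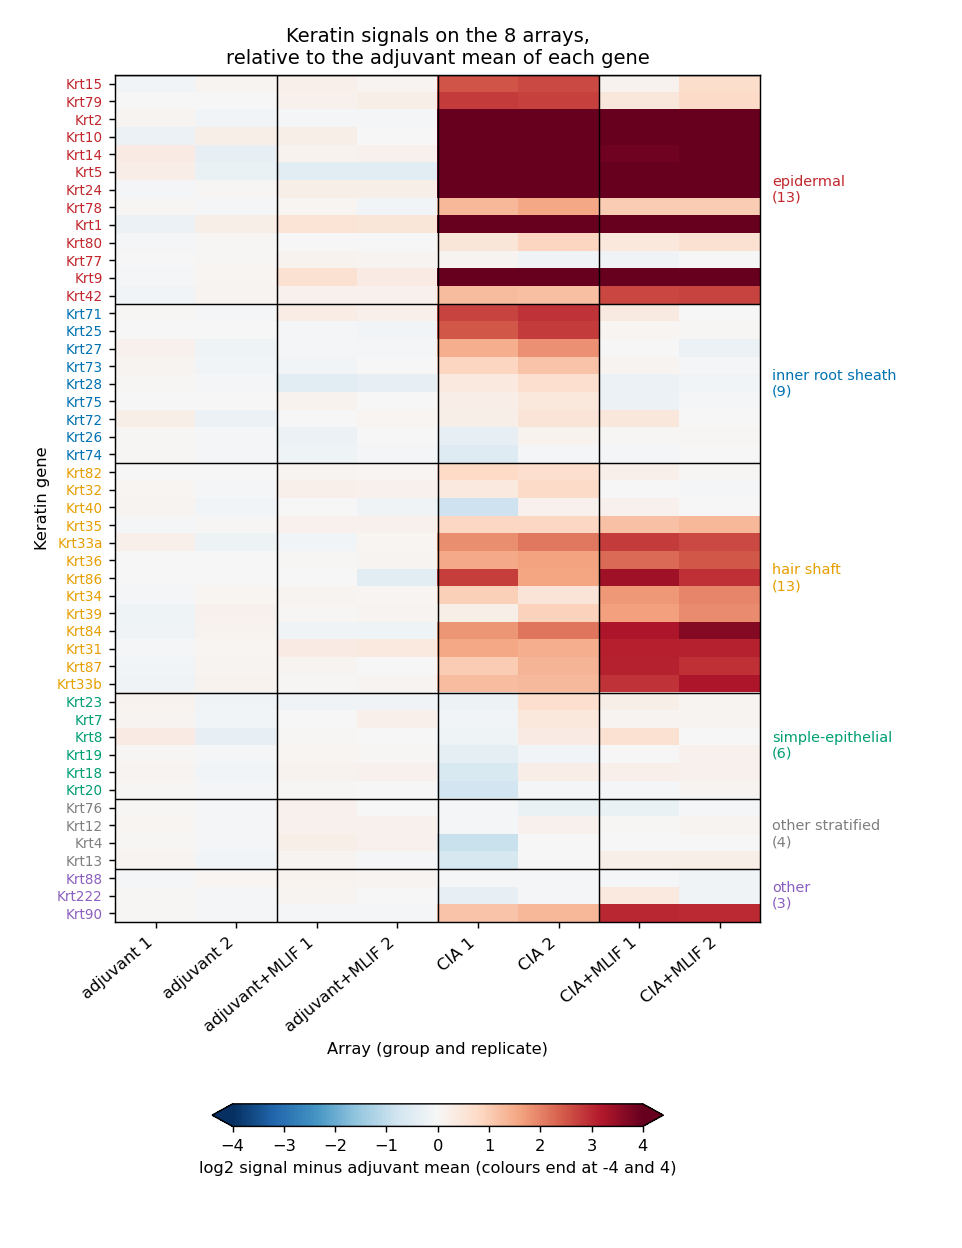
Each line is 1 of the 48 keratins and each column 1 of the 8 arrays, with the colour giving the log2 signal minus that gene's mean in the adjuvant group (stronger differences than the ends of the colour scale share its end colours). By the tests, 9 epidermal keratins were higher in both collagen comparisons, 5 inner root sheath keratins were higher in CIA than in adjuvant and lower in CIA+MLIF than in CIA, 8 hair shaft keratins were higher in CIA+MLIF than in CIA, and no simple-epithelial keratin passed.

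Among epidermal keratins, Krt5 and Krt14 form the pair of the basal layer, where keratinocytes divide. Krt14 had log2 signals of 6.42 and 5.80 in adjuvant, 6.24 and 6.28 in adjuvant+MLIF, 11.02 and 11.12 in CIA, and 10.00 and 10.14 in CIA+MLIF. Krt5 gave 6.77 and 6.21, then 6.04 and 6.05, then 11.28 and 11.65, then 10.58 and 10.93 in the same order of groups. Every collagen array stood above every adjuvant array for both genes, with and without MLIF. The change in CIA against adjuvant was 4.98 (SE 0.22, adjusted p = 1.85e-06) for Krt5 and 4.96 (SE 0.20, adjusted p = 9.65e-07) for Krt14. The 2 CIA+MLIF arrays lay under both CIA arrays for each gene. For Krt14 the difference was -1.0 (SE 0.20, adjusted p = 0.0124), and for Krt5 it was -0.71 (SE 0.22, adjusted p = 0.0648), which did not pass.

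The suprabasal keratins, made once keratinocytes leave the basal layer, had the largest measured changes of the family in CIA, from adjuvant signals near or under the control level. Krt1 and Krt10 pair in all suprabasal layers, Krt2 joins in the upper layers, and Krt24 is known from differentiating keratinocytes. Krt10 had signals of 6.19 and 6.67 in adjuvant, 6.67 and 6.46 in adjuvant+MLIF, 12.87 and 12.82 in CIA, and 11.64 and 11.98 in CIA+MLIF. Krt1 gave 5.56 and 6.05, 6.34 and 6.30, 12.83 and 13.24, and 12.76 and 12.91. So Krt10 was lower in CIA+MLIF than in CIA (-1.03, SE 0.20, adjusted p = 0.00964), while its partner Krt1 had a difference of -0.20 (SE 0.21, adjusted p = 0.517) with overlapping arrays. Krt2 gave 5.47 and 5.28 in adjuvant, 5.31 and 5.34 in adjuvant+MLIF, 12.23 and 12.25 in CIA, and 10.36 and 10.46 in CIA+MLIF. It fell by 1.83 with MLIF (SE 0.14, adjusted p = 9.81e-05), yet stayed 5.09 above adjuvant+MLIF (SE 0.14, adjusted p = 9.04e-07). Krt24 gave 5.48 and 5.58, 5.78 and 5.75, 11.83 and 12.31, and 11.56 and 11.72. Its CIA+MLIF arrays lay under its CIA arrays by a difference that did not pass (-0.43, SE 0.18, adjusted p = 0.137).

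The interaction was negative for Krt2 (-1.78, SE 0.20, adjusted p = 0.00109), Krt10 (-1.17, SE 0.28, adjusted p = 0.0407) and Krt14 (-1.15, SE 0.29, adjusted p = 0.0465). For these 3 genes the collagen effect passed in both settings and differed in size. The calls of Krt10 and Krt14 in the interaction were lost in 8 and 9 of the alternatives, among them leaving out either adjuvant+MLIF array, and their calls in CIA+MLIF against CIA were lost without CIA+MLIF replicate 1 and with array weights.

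Krt9 is the keratin of palm and sole skin, which is footpad skin in a mouse. Its signals were 5.60 and 5.78 in adjuvant, 6.29 and 6.02 in adjuvant+MLIF, 10.64 and 11.06 in CIA, and 10.78 and 11.20 in CIA+MLIF. The collagen arrays with and without MLIF overlapped, and the difference between them was 0.14 (SE 0.21, adjusted p = 0.656). The effect of collagen was 5.16 without MLIF (SE 0.21, adjusted p = 9.11e-07) and 4.84 with it (SE 0.21, adjusted p = 5.46e-06).

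Krt15 and Krt79 behaved otherwise. Krt15 is a keratin of the basal layer and the hair follicle bulge, and Krt79 marks the follicle's upper duct and the sebaceous duct. Krt15 had signals of 6.24 and 6.46 in adjuvant, 6.56 and 6.47 in adjuvant+MLIF, 8.86 and 9.00 in CIA, and 6.48 and 7.06 in CIA+MLIF. Krt79 gave 6.48 and 6.47, 6.64 and 6.70, 9.27 and 9.21, and 6.92 and 7.25. For both genes the CIA arrays alone were high. Krt15 rose by 2.58 in CIA (SE 0.20, adjusted p = 4.28e-05) and changed by -2.16 in CIA+MLIF (SE 0.20, adjusted p = 2.35e-04). Krt79 rose by 2.77 (SE 0.16, adjusted p = 8.06e-06) and changed by -2.16 (SE 0.16, adjusted p = 6.3e-05). In CIA+MLIF against adjuvant+MLIF the changes were 0.26 (Krt15) and 0.41 (Krt79), and neither passed. Their interactions were -2.33 (Krt15, adjusted p = 0.00156) and -2.35 (Krt79, adjusted p = 4.09e-04).

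Krt42, described from the nail, was the 1 epidermal keratin called higher in CIA+MLIF than in CIA. It gave 6.55 and 6.74 in adjuvant, 6.82 and 6.81 in adjuvant+MLIF, 7.92 and 7.86 in CIA, and 9.33 and 9.36 in CIA+MLIF. The groups formed 3 separate steps, with both adjuvant groups lowest, CIA in the middle and CIA+MLIF highest. The rise from CIA to CIA+MLIF was 1.45 (SE 0.14, adjusted p = 2.63e-04).

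Of the 3 remaining epidermal members, Krt78 and Krt80 are keratins of differentiating epithelia. Krt78 gave 6.27 and 6.16 in adjuvant, 6.28 and 6.10 in adjuvant+MLIF, 7.56 and 7.75 in CIA, and 7.23 and 7.24 in CIA+MLIF. It was higher in CIA (1.44, SE 0.15, adjusted p = 2.43e-04), and also in CIA+MLIF than in adjuvant+MLIF (1.05, SE 0.15, adjusted p = 0.0121), a call lost when either array of those groups was left out. Krt80 gave 7.80 and 7.92, 7.85 and 7.88, 8.34 and 8.73, and 8.29 and 8.48. Its rise in CIA was 0.68 (SE 0.17, adjusted p = 0.0269), and this call was lost without either adjuvant array. Krt77, a suprabasal type II keratin, ranged only from 6.08 to 6.35 over all arrays and was the 1 epidermal member that passed nowhere.

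**Figure D2:**
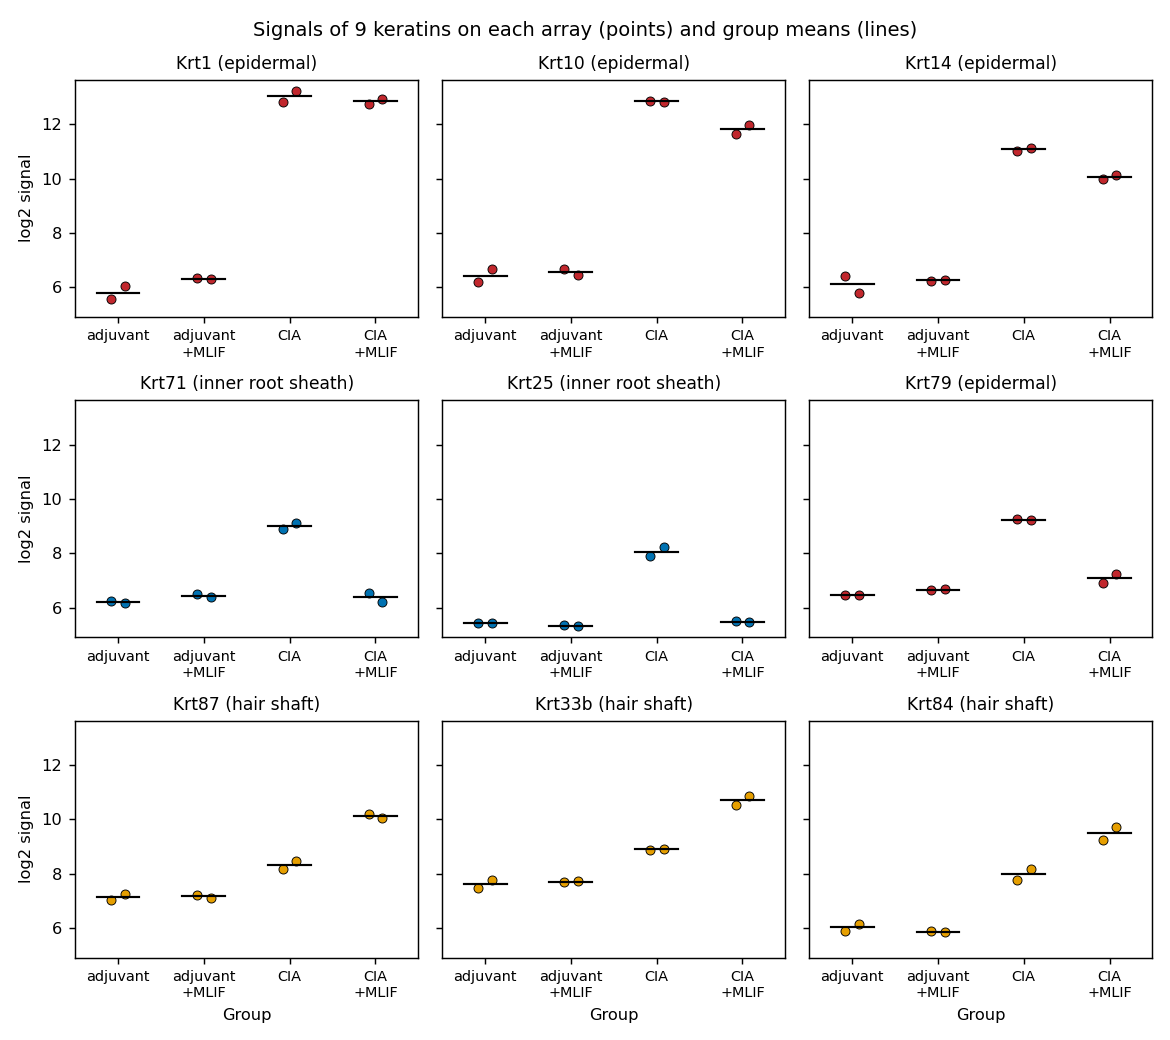
Points are the log2 signals of the 2 arrays of each group and short lines are group means, for 3 keratins that were high in both collagen groups (Krt1, Krt10, Krt14), 3 that were high in CIA alone (Krt71, Krt25, Krt79) and 3 that were highest in CIA+MLIF (Krt87, Krt33b, Krt84). All panels share 1 vertical scale, on which Krt1 reaches 13.24 in CIA and Krt84 reaches 9.71 in CIA+MLIF.

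Inner root sheath keratins build the sheath that moulds the growing hair and is shed before the hair emerges, so they mark follicles in the growth phase. Krt71 and Krt25 are a main pair of this sheath. Krt71 had signals of 6.24 and 6.17 in adjuvant, 6.50 and 6.40 in adjuvant+MLIF, 8.91 and 9.10 in CIA, and 6.55 and 6.22 in CIA+MLIF. Krt25 gave 5.43 and 5.42, 5.35 and 5.31, 7.91 and 8.22, and 5.50 and 5.46. Both were high on the CIA arrays only, and the CIA+MLIF arrays lay at the adjuvant+MLIF level (change -0.06 for Krt71 and 0.15 for Krt25, SE 0.16 and 0.15). Krt71 rose by 2.80 in CIA (SE 0.16, adjusted p = 8.79e-06), and Krt25 by 2.64 (SE 0.15, adjusted p = 8.2e-06). Since the adjuvant signals of both were under the control level of 6.34, these sizes are not well determined. In CIA+MLIF against CIA the changes were -2.62 (SE 0.16, adjusted p = 3.82e-05) and -2.58 (SE 0.15, adjusted p = 2.91e-05).

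Krt27, Krt28 and Krt73, further sheath keratins, had the same directions at smaller sizes. Krt27 gave 6.57 and 6.21 in adjuvant, 6.32 and 6.34 in adjuvant+MLIF, 7.84 and 8.22 in CIA, and 6.38 and 6.16 in CIA+MLIF. Krt73 gave 6.32 and 6.09, 6.10 and 6.17, 7.05 and 7.33, and 6.32 and 6.15. Krt28, the dimmest of the called keratins, gave 4.78 and 4.67, 4.26 and 4.39, 5.13 and 5.41, and 4.49 and 4.62. In each case both CIA arrays stood above all 6 others. Krt27 rose by 1.64 (SE 0.19, adjusted p = 4.45e-04) and changed by -1.76 with MLIF (SE 0.19, adjusted p = 4.46e-04). The changes were 0.99 and -0.96 for Krt73 (SE 0.17, adjusted p = 0.00352 and 0.00543) and 0.54 and -0.71 for Krt28 (SE 0.16, adjusted p = 0.0455 and 0.0181). Krt28 lost both calls in several alternatives, and its mean was under the control level in every group (5.27 against 6.16 in CIA). Krt73 lost its calls without adjuvant replicate 2 and without CIA+MLIF replicate 2. The 4 other sheath members passed in no comparison of the main fit. Their changes in CIA ran from -0.29 (Krt74, which RefSeq lists as a transcribed pseudogene) to 0.38 (Krt72). Krt75, of the companion layer around the sheath, had a difference of -0.51 with MLIF (SE 0.15, adjusted p = 0.0508). The interaction was negative for Krt71 (-2.87, SE 0.23, adjusted p = 1.79e-04), Krt25 (-2.49, SE 0.22, adjusted p = 2.64e-04) and Krt27 (-1.70, SE 0.27, adjusted p = 0.00504).

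Hair shaft keratins fill the hair itself and, in part, the nail. Krt31, Krt33a, Krt33b, Krt34 (type I), Krt86 and Krt87 (type II) are keratins of the hair cortex. Krt33b had signals of 7.49 and 7.76 in adjuvant, 7.69 and 7.73 in adjuvant+MLIF, 8.86 and 8.93 in CIA, and 10.52 and 10.88 in CIA+MLIF. Krt87 gave 7.02 and 7.25, 7.23 and 7.11, 8.16 and 8.48, and 10.20 and 10.04. Krt31 gave 6.23 and 6.41, 6.65 and 6.70, 7.87 and 7.79, and 9.43 and 9.40. For all 3 genes the order was both adjuvant groups, then CIA, then CIA+MLIF, with no overlap between these 3 levels. The changes in CIA were 1.27 (Krt33b), 1.19 (Krt87) and 1.51 (Krt31), and those from CIA to CIA+MLIF were 1.80, 1.80 and 1.59 (SE 0.17, 0.17 and 0.14, adjusted p = 2.54e-04, 2.48e-04 and 1.94e-04). Collagen with MLIF thus stood 7.95-fold (Krt33b), 7.72-fold (Krt87) and 6.68-fold (Krt31) above adjuvant+MLIF.

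Krt84 and Krt36 are hair and nail type keratins also known from the papillae of the tongue. Krt84 had the largest measured rise of the hair shaft set in the presence of MLIF, with 5.91 and 6.16 in adjuvant, 5.89 and 5.85 in adjuvant+MLIF, 7.79 and 8.17 in CIA, and 9.26 and 9.71 in CIA+MLIF. Krt36 gave 5.86 and 5.82, 5.89 and 5.95, 7.35 and 7.45, and 8.10 and 8.33. Both followed the 3 steps seen in the cortex keratins. In CIA+MLIF against adjuvant+MLIF the change was 3.62 for Krt84 (SE 0.20, adjusted p = 2.36e-05) and 2.29 for Krt36 (SE 0.15, adjusted p = 4.84e-05). Krt36 was higher in CIA+MLIF than in CIA by 0.81 (SE 0.15, adjusted p = 0.00696), a call lost without CIA+MLIF replicate 2 and with array weights.

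Krt33a gave 7.10 and 6.67 in adjuvant, 6.78 and 6.95 in adjuvant+MLIF, 8.74 and 9.00 in CIA, and 9.69 and 9.54 in CIA+MLIF, rising by 1.99 in CIA and by a further 0.74 with MLIF (SE 0.19, adjusted p = 0.0307, lost in 10 alternatives). Krt86, for which the 2 CIA arrays differed most of all keratins, gave 6.10 and 6.09, 6.10 and 5.69, 8.85 and 7.68, and 9.48 and 9.02. The collagen groups stood above the adjuvant groups for Krt86 (2.17 without MLIF and 3.36 with it, SE 0.34), while its difference of 0.98 between CIA+MLIF and CIA did not pass (adjusted p = 0.0852). The other hair shaft keratins called higher in CIA+MLIF than in CIA were Krt34 (1.11, lost without CIA+MLIF replicate 2) and Krt39 (1.19, lost without either CIA+MLIF array). Krt35, of the hair matrix, passed in both collagen comparisons but not between them (0.42, adjusted p = 0.079). Its call without MLIF was lost without adjuvant replicate 1 and with array weights, and its call with MLIF was lost without any 1 of the 4 arrays compared.

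The cuticle keratins Krt32 and Krt82, which form the scales on the hair surface, were the 2 hair shaft members that were lower with MLIF. Krt82 gave 6.38 and 6.42 in adjuvant, 6.49 and 6.47 in adjuvant+MLIF, 7.19 and 7.07 in CIA, and 6.61 and 6.45 in CIA+MLIF. Its changes were 0.74 in CIA and -0.60 with MLIF (SE 0.14, adjusted p = 0.00798 and 0.0244). For Krt32 they were 0.58 and -0.60 (SE 0.17, adjusted p = 0.0425 and 0.0431). These are small changes, and all 4 calls were lost in several alternatives. The mean of Krt32 was under the control level in every group (6.10 against 6.16 in CIA). Krt40 passed nowhere.

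Interactions were positive for Krt33b (1.72), Krt87 (1.76), Krt84 (1.67) and Krt31 (1.23) of the hair shaft, with adjusted p of 0.00262 to 0.00806 in limma, for Krt42 (1.29, SE 0.20, adjusted p = 0.00476) and for Krt90. The call of Krt31 was lost without either adjuvant+MLIF array and that of Krt84 without adjuvant replicate 2. Krt90 had signals of 6.54 and 6.47 in adjuvant, 6.45 and 6.44 in adjuvant+MLIF, 7.64 and 7.84 in CIA, and 9.52 and 9.47 in CIA+MLIF, the same 3 steps as the cortex keratins. Its interaction was 1.81 (SE 0.20, adjusted p = 0.001). The coding sequences of several hair keratins are near-identical, and their probe sets may read each other's RNA. Probe sequences were not used here, so how far Krt31, Krt33a and Krt33b, or Krt86 and Krt87, are independent readings was not tested.

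**Figure D3:**
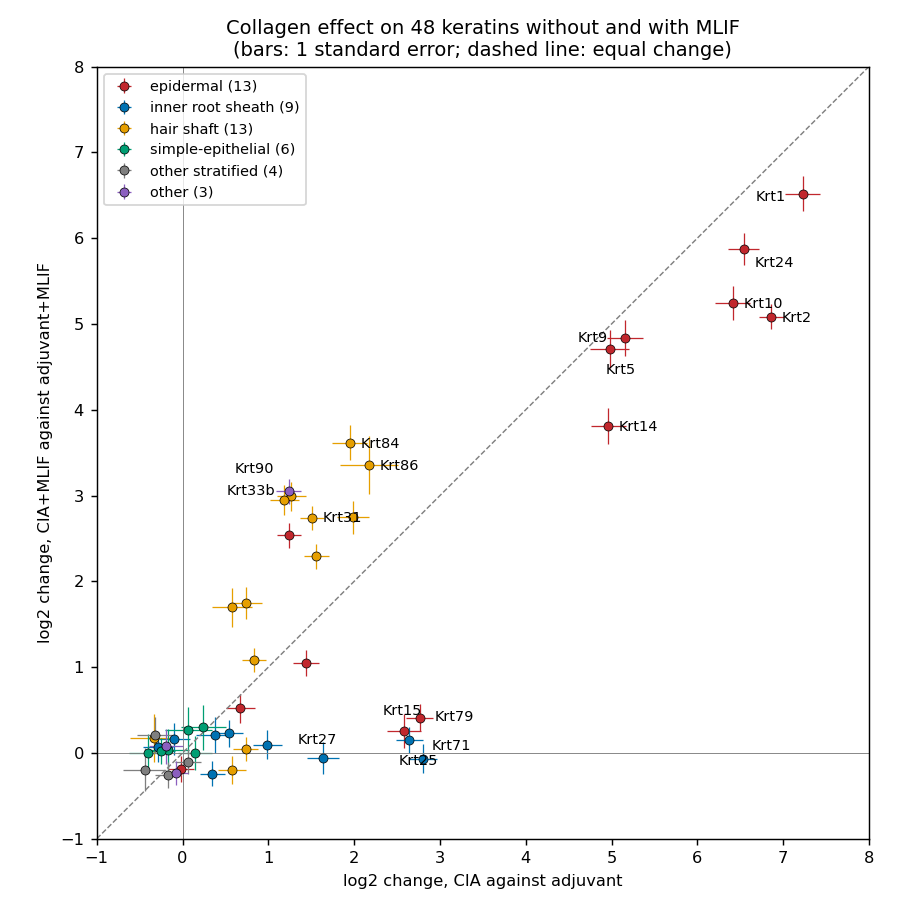
Each point is 1 of the 48 keratins, with its log2 change in CIA against adjuvant on the horizontal axis and in CIA+MLIF against adjuvant+MLIF on the vertical axis; bars are 1 standard error, colours are keratin groups and the dashed line marks equal change. Krt71 and Krt25 lie near 0 on the vertical axis at 2.80 and 2.64 on the horizontal, whereas Krt84 lies above the line at 1.95 and 3.62.

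Simple-epithelial keratins line glands, ducts and internal organs. Krt8 and Krt18, the main pair of simple epithelia, passed in no comparison. Krt8 had signals of 7.92 and 7.27 in adjuvant, 7.66 and 7.62 in adjuvant+MLIF, 7.42 and 7.91 in CIA, and 8.20 and 7.61 in CIA+MLIF. Krt18 gave 6.66 and 6.46, 6.69 and 6.73, 5.96 and 6.82, and 6.75 and 6.73. The groups overlapped for Krt8, and for Krt18 the CIA arrays spanned the values of all other groups, with the lowest value on the CIA replicate 1 array, whose overall scale is low. Their changes in CIA against adjuvant were 0.07 (Krt8, SE 0.27) and -0.17 (Krt18). Over the 6 simple-epithelial members, which add Krt7, Krt19, Krt20 (a keratin of gut and Merkel cells) and Krt23, changes ran from -0.41 to 0.24 in CIA against adjuvant and from -0.0025 to 0.30 in CIA+MLIF against adjuvant+MLIF. The mucosal keratins Krt4, Krt13 and Krt76 and the corneal Krt12 changed by -0.44 to 0.07 in CIA against adjuvant. Without CIA replicate 2, the low-scale array stood alone for CIA. The median change of all probe sets in CIA against adjuvant was then -0.44, so keratin decreases in that run cannot be told from the scale of the array.

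Keratin partners were compared side by side. Krt5 and Krt14 changed by 4.98 and 4.96 in CIA, and Krt71 and Krt25 by 2.80 and 2.64. The Krt1 and Krt10 pair changed by 7.23 and 6.41, and with MLIF by -0.20 and -1.03. Krt86 and Krt31 changed by 2.17 and 1.51 in CIA and by 0.98 and 1.59 with MLIF. Since each signal depends on its own probes, these are changes of each gene and not amounts of protein partners.

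Type I and type II keratins lie in separate gene clusters, and RefSeq (GRCm38.p6) places 25 of the 26 type I members on chromosome 11 and all 22 type II members on chromosome 15, with Krt18 beside the latter. In RefSeq order on chromosome 11, Krt25, Krt26, Krt27 and Krt28 lie next to each other, and 3 of these 4 were lower with MLIF. Krt33a, Krt33b, Krt34 and Krt31 follow each other further on and were all higher with MLIF, and the next gene, Krt32, was lower. On chromosome 15, Krt87, Krt86, Krt84 and Krt90 lie near each other, broken by Krt88 and Krt82, and Krt71, Krt74, Krt72 and Krt73 form the run of inner root sheath genes.

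**Figure D4:**
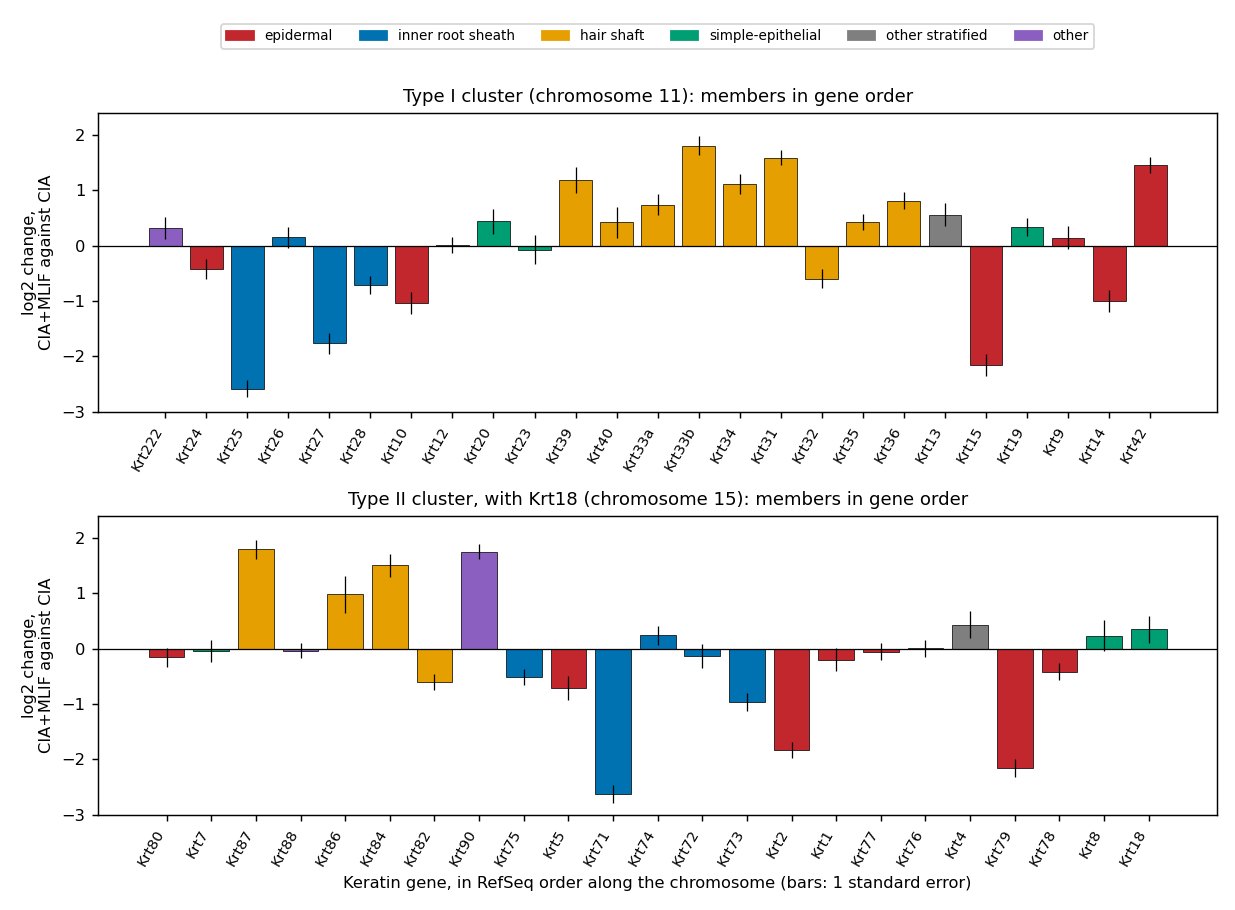
Bars are the log2 change of each keratin in CIA+MLIF against CIA with 1 standard error, in gene order along chromosome 11 (25 type I members) and chromosome 15 (22 type II members and Krt18), coloured by keratin group. The run from Krt33a to Krt31 lies above 0, while Krt32 beside it is at -0.60.

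The promoters of the members were also searched, by keratin group and by call with MLIF. A keratin group can hold members that moved differently or did not pass. RefSeq's table holds the promoter of 36 of the 48 members (37 promoters), and the 250 bases before the start site were searched on both strands. The letters TATAAA, the core of a TATA box, occurred in 17 of 37 keratin promoters (45.9%), against 12.4% of all 32851 promoters. They were in 7 of 8 inner root sheath promoters (87.5%) and 6 of 9 hair shaft promoters (66.7%), and in 1 of 10 epidermal ones. Of the mucosal and corneal promoters 2 of 4 held them. By call, TATAAA was in 4 of 8 promoters of keratins higher in CIA+MLIF than in CIA (50%) and 7 of 11 of those lower (63.6%). The letters CTTTGA, a form of the LEF/TCF site, occurred in 9 of 37 keratin promoters (24.3%) and 13.8% of all. They were in 5 of 9 hair shaft promoters (55.6%), among them that of Krt32, which was lower with MLIF, and 1 of 8 inner root sheath promoters. By call, CTTTGA was in 5 of 8 promoters of keratins higher in CIA+MLIF than in CIA (62.5%) and 3 of 11 of those lower (27.3%). CTTTGT, the other form searched, was in 4 of 37 (10.8%) against 16.5% of all, and GCCNNNGGC, a form of the AP-2 site, in 5 of 37 (13.5%) against 13.7%. Also searched were TGANTCA, a form of the AP-1 site, with 2 of 37 (5.41%) against 6.75%, CACCC, a form of the KLF site, with 29 of 37 (78.4%) against 52%, and CCAAT with 15 of 37 (40.5%) against 33.8%. Such matches describe the letters in these windows and show neither binding nor a cause.

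The promoters of 2 inner root sheath keratins that were lower with MLIF, 2 cortex keratins that were higher and 2 suprabasal keratins that were lower are shown, 5′ to 3′ on the gene's strand (minus for all 6, GRCm38.p6) and ending 1 base before the start site. Capitals mark matches on either strand to the motifs TATAAA, or CTTTGA, or the form CTTTGT, or GCCNNNGGC. Krt71 lies at chr15:101743098-101743347, Krt25 at chr11:99322952-99323201, Krt31 at chr11:100050552-100050801, Krt33b at chr11:100029869-100030118, Krt10 at chr11:99389365-99389614 and Krt2 at chr15:101818170-101818419.
Krt71: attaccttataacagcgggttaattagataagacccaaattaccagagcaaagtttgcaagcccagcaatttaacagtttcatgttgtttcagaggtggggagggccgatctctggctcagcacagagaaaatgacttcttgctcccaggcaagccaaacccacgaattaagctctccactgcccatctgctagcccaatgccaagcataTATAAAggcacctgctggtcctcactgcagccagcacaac
Krt25: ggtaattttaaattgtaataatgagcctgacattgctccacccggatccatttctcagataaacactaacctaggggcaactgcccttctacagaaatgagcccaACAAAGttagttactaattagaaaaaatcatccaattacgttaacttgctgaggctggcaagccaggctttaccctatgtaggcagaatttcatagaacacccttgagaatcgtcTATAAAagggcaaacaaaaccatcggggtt
Krt31: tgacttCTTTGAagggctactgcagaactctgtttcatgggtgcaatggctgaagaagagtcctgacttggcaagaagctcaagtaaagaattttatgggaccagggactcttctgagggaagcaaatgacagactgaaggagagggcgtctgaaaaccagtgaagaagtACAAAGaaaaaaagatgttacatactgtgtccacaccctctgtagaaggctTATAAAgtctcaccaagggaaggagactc
Krt33b: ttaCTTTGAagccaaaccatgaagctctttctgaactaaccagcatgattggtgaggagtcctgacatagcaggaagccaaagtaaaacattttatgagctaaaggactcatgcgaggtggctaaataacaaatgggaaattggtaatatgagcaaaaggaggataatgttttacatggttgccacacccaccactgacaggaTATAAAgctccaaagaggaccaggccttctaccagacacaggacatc
Krt10: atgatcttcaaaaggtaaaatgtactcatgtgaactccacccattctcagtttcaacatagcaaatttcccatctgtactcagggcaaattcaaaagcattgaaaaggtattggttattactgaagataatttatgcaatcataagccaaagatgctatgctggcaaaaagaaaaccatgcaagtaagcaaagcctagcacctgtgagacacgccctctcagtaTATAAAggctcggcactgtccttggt
Krt2: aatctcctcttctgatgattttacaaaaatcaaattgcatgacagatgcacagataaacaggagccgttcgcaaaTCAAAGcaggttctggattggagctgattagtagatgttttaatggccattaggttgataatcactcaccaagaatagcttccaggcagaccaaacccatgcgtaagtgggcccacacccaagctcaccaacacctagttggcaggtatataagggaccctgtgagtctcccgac

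In these windows TATAAA began 40 bases before the start in Krt71, 30 in Krt25, 29 in Krt31, 47 in Krt33b and 26 in Krt10. The neighbours Krt31 and Krt33b both held CTTTGA near the upstream end, 244 and 247 bases before the start. Krt2 held it on the opposite strand at 175 bases and no TATAAA in these letters.

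Genes whose products bind or bundle keratin filaments went partly with the epidermal keratins. Of 14 measured, 8 were higher and 1 lower in CIA than in adjuvant, where 4.30% of all probe sets were higher and 14.2% lower, and the median change was 0.86 against -0.25. In CIA+MLIF against CIA 1 was higher and 3 lower, where 11.5% of all probe sets were higher and 3.25% lower. Dsp, the desmosomal protein that anchors keratin filaments, rose by 4.27 in CIA (SE 0.16, adjusted p = 7.08e-07) and by 3.70 in CIA+MLIF against adjuvant+MLIF. Hrnr, a filaggrin-like protein of the cornified layer, rose by 6.12 in CIA. Flg2, of the same family, rose by 3.36 and changed by -2.56 with MLIF (SE 0.27, adjusted p = 4.11e-04). Tchh, trichohyalin, which hardens the inner root sheath, rose by 1.52 and changed by -1.40 with MLIF (SE 0.19, adjusted p = 0.00153), and its CIA+MLIF arrays were at 7.04 and 6.97 beside 7.0 and 6.95 in adjuvant+MLIF. Tchh thus had the directions of the inner root sheath keratins it binds.

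Of 19 regulators known to act on keratin genes, 7 were higher and 0 lower in CIA (4.30% and 14.2% of all probe sets), with a median change of 0.46 against -0.25. With MLIF 0 were higher and 4 lower (11.5% and 3.25% of all probe sets). Those higher in CIA included Tfap2c (1.77) and Tfap2a (1.17), which are AP-2 factors, Zfp750 (1.69) and Grhl1 (1.49) of epidermal differentiation, and Gata3 (1.14), a factor of the inner root sheath. Gata3 changed by -0.83 with MLIF (SE 0.19, adjusted p = 0.0214). The hair factors Hoxc13, Foxn1, Lef1, Msx2 and Dlx3 gave no call, with changes from CIA to CIA+MLIF of 0.24, 0.37, 0.39, -0.04 and 0.03, where the median of all probe sets was 0.24.

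The 4 stress keratins left out of the family here, which wounded or nail-forming epithelium makes, were all higher in CIA, and 3 were higher and 1 lower with MLIF. A list of 17 genes held other intermediate filament genes and Eppk1, which was also counted among the keratin-binding genes. Of these 17, 2 were higher and 3 lower in CIA, where 4.30% of all probe sets were higher and 14.2% lower. With MLIF 4 were higher and 1 lower, where 11.5% of all probe sets were higher and 3.25% lower. Des, desmin of muscle, changed by -1.84 in CIA and by 1.90 with MLIF.

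Marker lists of several other cell types also moved with these groups, and the shares to read them against are those of all probe sets: 4.30% higher and 14.2% lower in CIA, and 11.5% higher and 3.25% lower with MLIF. All 9 measured markers of differentiated keratinocytes other than keratins were higher in CIA and 7 were lower with MLIF; their mean over the array median was -0.96 to -0.95 in adjuvant, -0.97 to -0.96 in adjuvant+MLIF, 2.85 to 2.87 in CIA and 1.64 to 1.68 in CIA+MLIF. Of 8 basal keratinocyte markers without keratins 1 was higher and 1 lower in CIA, with Col17a1 the one that was higher (1.18). Of 10 hair follicle markers 2 were higher in CIA, Tchh and Gsdma, and 1 was lower with MLIF; their mean ran from -0.55 to -0.47 in adjuvant, 0.01 to 0.03 in CIA and -0.32 to -0.31 in CIA+MLIF. All 10 skeletal muscle markers were lower in CIA and all 10 higher with MLIF, with means of 5.88 to 5.98 in adjuvant, 4.82 to 5.02 in CIA and 5.73 to 6.0 in CIA+MLIF over the array median. All 6 neutrophil markers were higher in CIA and all 6 lower with MLIF, and of 5 fibroblast markers 3 were higher and then 3 lower. All 5 adipocyte markers were lower in CIA, and 3 were higher with MLIF. Of the 8 joint markers 0 were higher and 2 lower in CIA, and 2 were higher and 1 lower with MLIF. Of 3 bone markers 1 was higher in CIA and 2 were lower with MLIF, and of 7 sweat gland markers 1 was higher and 1 lower in CIA and 1 higher with MLIF. The 7 Merkel cell, 6 melanocyte and 4 mesothelium markers had no call in limma's test of either comparison, with 0, 2 and 2 of them at an unadjusted p under 0.05 in CIA against adjuvant. The part that the share of skin, muscle or infiltrating cells in each excised piece has in the keratin changes was not tested. Epidermal keratins averaged 3.17 to 3.42 over the array median in CIA and 2.29 to 2.54 in CIA+MLIF, and hair shaft keratins 0.53 to 0.84 and 1.29 to 1.35. These are means, which not every member followed. With MLIF the epidermal Krt42 changed by 1.45 and Krt9 by 0.14, and the hair shaft keratins Krt32 and Krt82 each by -0.60.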

How the data were processed

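RNA of excised paws (300 ng, biotin-labelled per the labels' protocols) was hybridised to Affymetrix Mouse Gene 1.0 ST arrays, 8 in all and 2 per group. The deposited table holds log2 signals, 1 per probe set and array. The log2 scale was inferred from the range of the values; for software, background correction and normalization the sources used here name nothing. Of 35557 entries, 6613 without annotation, numbered below the gene-level probe sets, were taken as controls and left out. The other 28944 were tested without a filter on intensity. Probe sets were named from the platform annotation (21789 with 1 symbol, 1621 with several, 5534 with none), and all 48 keratins matched RefSeq by symbol. Krt81 and Krt83, keratins in RefSeq without a probe set of their own, and Krt85 were not analysed here. Precision rests on the number of arrays.

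The means of the 4 groups were fitted to all 8 arrays with limma 3.58.1 in R 4.3.3 (degrees of freedom: residual 4, prior 4.96). The 5 comparisons were tested two-sided, with Benjamini-Hochberg adjustment across all probe sets. On data simulated for CIA against adjuvant, with 50 of 28944 probe sets changed at each size, changes of 0.5, 1, 2 and 3 on the log2 scale gave 1, 23, 46 and 46 calls, and 6 unchanged probe sets were called. The simulated arrays had no array-wide shift, the same spread in every group and far fewer changed probe sets than the data had calls. These rates of calls therefore need not hold for the data. The 17 lists held 150 genes, 142 of them measured. Per-array values were given for called epidermal, simple-epithelial and mucosal keratins, their partners, and up to 8 called members of each other group. The members and lists were chosen with earlier results of these data known. Alternatives were quantile normalization, centring, 1 value per gene, a filter on dim probe sets, other variance models, array weights, only the groups compared, a replicate block, other thresholds, the adjuvant+MLIF arrays averaged, and leaving out each array in turn. Python 3.11.15 with Matplotlib 3.10.9 drew the figures.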

Additional observations from a re-analysis of the deposited data

Results flagged for a closer look

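For 14 keratins the effect of collagen differed between mice with and without MLIF, by the interaction in limma at an adjusted p under 0.05. It was smaller with MLIF for the epidermal keratins Krt2 (-1.78 on the log2 scale), Krt10 (-1.17), Krt14 (-1.15), Krt15 (-2.33) and Krt79 (-2.35) and for the inner root sheath keratins Krt71 (-2.87), Krt25 (-2.49) and Krt27 (-1.70). It was larger with MLIF for the hair shaft keratins Krt87 (1.76), Krt33b (1.72), Krt84 (1.67) and Krt31 (1.23), for Krt42 (1.29) and for Krt90 (1.81).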

How the results depend on the processing

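Of 85 calls of a keratin in a comparison, 60 passed in every alternative run and 0 changed sign. In CIA against adjuvant, array weights called 21 keratins higher and a fit of only the groups compared 24 (29 in the main fit). In these runs 1.85% and 2.61% of all probe sets were higher. Array weights called 6 keratins lower in CIA+MLIF than in CIA (12 without weights), where 0.774% of all probe sets were lower. In adjuvant+MLIF against adjuvant array weights called 2 higher and 1 lower (0 and 0 without weights), where 1.49% of all probe sets were higher and 3.49% lower. Quantile normalization and centring each called 15 negative interactions (8 as deposited), where 8.79% and 8.13% of all probe sets were negative. Krt26 in CIA against adjuvant went from -0.09 to 0.36 under quantile normalization, and the cause was not tested. Leaving out 1 array, CIA against adjuvant gave 23 to 32 keratins higher and 0 to 7 lower, CIA+MLIF against CIA 6 to 19 higher and 7 to 16 lower, CIA+MLIF against adjuvant+MLIF 17 to 20 higher and 0 lower, and the interaction 5 to 17 positive and 6 to 13 negative. The highest counts lower in CIA, higher in CIA+MLIF than in CIA and positive in the interaction came without CIA replicate 2. There the medians of all probe sets were -0.44, 0.43 and 0.40, against -0.25, 0.24 and 0.21 with all arrays. In that run a smaller share of keratins than of all probe sets was called in each of these directions. The shift in that run was thus not one of keratins alone. The highest count of negative interactions came without CIA replicate 1. In CIA+MLIF against CIA the fewest higher calls came without CIA+MLIF replicate 2, and the fewest lower calls without either CIA+MLIF array. By group, leaving out CIA+MLIF replicate 2 gave 4 hair shaft keratins higher and 3 inner root sheath keratins lower in CIA+MLIF than in CIA, where all arrays gave 8 and 5. Same-numbered arrays had correlated deviations of -0.11 to 0.39 over 6 pairs of groups, so the numbers were not taken as pairing. A replicate block gave 28 higher in CIA against adjuvant (4.23% of all probe sets), and 11 higher and 11 lower in CIA+MLIF against CIA (10.9% and 3.18%). It gave 20 higher in CIA+MLIF against adjuvant+MLIF (0.674% of all probe sets), and 7 positive and 7 negative interactions (5.38% and 1.61%). A crossed pairing of CIA and CIA+MLIF, chosen after seeing the data, gave 10 higher and 9 lower, where 8.69% of all probe sets were higher and 1.87% lower. Signals near the control level limit the smaller changes.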
